A study of Mus musculus with 6 samples.

Results

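The Meis, Pbx and Pknox genes encode homeodomain proteins of the TALE class, named for an extra loop of amino acids in the homeodomain, that bind DNA together with Hox proteins. Accessible intervals were assigned to 8 of these genes, Meis1, Meis2, Meis3, Pbx2, Pbx3, Pbx4, Pknox1 and Pknox2, by position: an interval belonged to a gene when its midpoint lay inside the RefSeq gene body, or when the nearest end (start or finish) of any protein-coding gene was that gene's and lay within 400 kb. This gave 96 of 52223 intervals, 36 at Meis1, 22 at Pknox2, 18 at Meis2, 11 at Pbx3, 3 each at Meis3 and Pbx4, 2 at Pknox1 and 1 at Pbx2. The members were chosen by position, and the 8 genes were proposed with measured differences between the same libraries known. An interval also exists only where fragments were enriched in these same libraries, so accessibility at these loci is a description and not a finding.

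Accessibility was measured by ATAC-seq, which reads where the transposase Tn5 can insert sequencing adapters into DNA, in 6 libraries of mouse neural progenitors differentiated from embryonic stem cells. The 3 Nr6a1OE libraries came from cells given a lentivirus that encodes Nr6a1 joined by a 2A peptide to the red fluorescent protein mScarlet3, and the 3 mScarlet libraries from cells given a lentivirus that encodes mScarlet3 alone. Nr6a1 is an orphan nuclear receptor. All cells in both groups had started in medium with bFGF and had then received the GSK3 inhibitor CHIR99021 at 5 µM on day 2, retinoic acid at 100 nM with Smoothened agonist at 10 nM from day 3, and Smoothened agonist alone from day 5, the day the virus was added. Fluorescent cells were sorted on day 9, and 50000 entered each library. The labels name neither the promoter that drives the viral gene nor the embryonic stem cell line, and they do not say whether the libraries of a group came from separate cultures. The p-values therefore measure only the spread between these libraries, which may be technical.

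TALE proteins work as parts of a complex. Pbx proteins form dimers with Hox proteins on DNA and sharpen which sites a Hox protein binds, and Meis or Pknox proteins bind Pbx through a separate domain and hold it in the nucleus. Meis and Pknox (also called Prep) proteins compete for the same surface of Pbx. In the developing hindbrain and spinal cord these complexes act with Hox proteins in the segmental and motor neuron programmes, and Meis genes respond to retinoic acid, which this protocol supplies.

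The libraries held 6857763 to 8030029 fragments in intervals, of which 0.175 to 0.184% lay in the 96 intervals. Across the genome edgeR's quasi-likelihood test, with a Benjamini-Hochberg adjusted p under 0.05, called 242 of 51637 tested intervals higher and 652 lower in Nr6a1OE. The labelled cell type was checked against marker genes at gene ends. All 11 neural progenitor markers had an interval there, with summed levels of 1044 CPM (the usual unit of fragment counts scaled to library size) in Nr6a1OE and 1038 CPM in mScarlet. The pluripotency genes Pou5f1, Nanog and Zfp42 had none, and the remaining 2 of those 5 markers summed to 9.68 CPM in Nr6a1OE and 10.0 CPM in mScarlet. Markers of other cell types were open too. Intervals at 6 of 7 neuron markers summed to 296 CPM in Nr6a1OE and 301 CPM in mScarlet, and those at 5 of 6 mesoderm markers to 212 CPM in Nr6a1OE and 209 CPM in mScarlet. Those at 5 of 6 endoderm markers summed to 181 CPM in Nr6a1OE and 183 CPM in mScarlet. Neural crest (3 of 5 markers) had 48.7 CPM in Nr6a1OE and 49.8 CPM in mScarlet, and endothelium and blood (2 of 6) 80.5 CPM in Nr6a1OE and 82.9 CPM in mScarlet. No marker's gene-end interval was called by edgeR, and their part in the results below was not tested. In bulk libraries a smaller share of open cells and less open chromatin in each cell cannot be told apart.

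RefSeq promoter sequence (GRCm38.p6, whose coordinates are those of mm10) was matched for 5 of the 8 genes, Meis1, Meis2, Meis3, Pbx2 and Pbx4. The 250 bases before the start are shown for 4 of them, to be set beside the intervals at the start. The windows are Meis1 at chr11:19018970-19019219 on the minus strand, Meis2 at chr2:116064620-116064869 on the minus strand, Pbx4 at chr8:69832374-69832623 on the plus strand and Pbx2 at chr17:34592009-34592258 on the plus strand. Capitals mark CpG dinucleotides.
Meis1: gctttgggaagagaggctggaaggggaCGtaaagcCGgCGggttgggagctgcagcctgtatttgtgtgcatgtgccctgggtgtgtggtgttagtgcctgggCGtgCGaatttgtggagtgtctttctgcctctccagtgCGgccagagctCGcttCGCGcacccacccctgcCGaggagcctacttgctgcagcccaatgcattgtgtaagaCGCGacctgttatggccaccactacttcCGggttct
Meis2: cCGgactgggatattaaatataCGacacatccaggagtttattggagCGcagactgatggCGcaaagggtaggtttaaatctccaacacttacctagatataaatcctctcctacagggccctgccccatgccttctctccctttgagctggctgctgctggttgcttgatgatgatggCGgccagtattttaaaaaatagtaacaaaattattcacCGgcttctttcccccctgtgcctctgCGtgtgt
Pbx4: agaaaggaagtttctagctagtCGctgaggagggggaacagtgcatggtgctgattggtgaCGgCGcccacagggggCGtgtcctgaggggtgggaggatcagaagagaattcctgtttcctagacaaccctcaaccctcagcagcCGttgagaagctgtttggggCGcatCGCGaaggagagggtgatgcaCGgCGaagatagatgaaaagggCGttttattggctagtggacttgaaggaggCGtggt
Pbx2: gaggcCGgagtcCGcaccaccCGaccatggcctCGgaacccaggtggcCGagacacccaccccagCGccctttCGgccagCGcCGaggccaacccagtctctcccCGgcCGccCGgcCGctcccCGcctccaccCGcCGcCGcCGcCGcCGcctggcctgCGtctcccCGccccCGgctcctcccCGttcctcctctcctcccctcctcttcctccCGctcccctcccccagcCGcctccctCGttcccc
The Meis1, Pbx4 and Pbx2 windows lay whole inside the strongest interval of their gene, and so did that of Meis3. The Meis2 window did not: 80 of its bases fell in an interval weaker than the strongest one of the gene, which lay further upstream. The Pbx2 window held 27 CpGs, that of Meis1 13, that of Pbx4 12 and that of Meis2 7. Over 32851 RefSeq promoter windows of the same length the median was 6, with quartiles of 2 and 16. Of the windows shown, only that of Pbx2 lay outside these quartiles. None of the 5 windows held TGACAG, the core bound by Meis and Pknox, which 15.9% of all windows held. None held TGATNNAT, the Pbx-Hox core (7.68%), AGGTCA, the nuclear receptor half-site (14.0%), or TCAAGGTCA, the extended half-site bound by Nr6a1 (0.387%), all searched on both strands. The AGGTCA letters lie within TCAAGGTCA, so those counts overlap. No genome sequence was used here, so the distal intervals were not searched.

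At the strongest interval of each gene the groups overlapped and no difference passed the test. Levels were also taken per kilobase of interval, which makes them depend on how wide each interval was drawn. Pknox2, with the highest mean over all libraries (124 CPM), had an interval of 3800 bp, and Pbx4 one of 1100 bp. Per kilobase Pbx4 had the highest level, 78.6, 74.2 and 75.8 CPM per kb in Nr6a1OE 1, 2 and 3 and 74.2, 75.5 and 82.0 CPM per kb in mScarlet 1, 2 and 3. Pbx2 had the lowest, 25.2, 23.5 and 25.2 CPM per kb in Nr6a1OE and 22.9, 25.0 and 25.0 CPM per kb in mScarlet. Between them in mScarlet came Pknox1 (53.0 CPM per kb), Pbx3 (50.5), Meis1 (42.5), Meis3 (41.3), Meis2 (35.3) and Pknox2 (32.5). The ranges of Pknox1 and Pbx3, and of Meis1 and Meis3, overlapped over the mScarlet libraries, and those of the other neighbours in this order did not. Over the Nr6a1OE libraries the order was the same, and the neighbours whose ranges overlapped were Meis1 with Meis3 and Meis2 with Pknox2.

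**Figure D1:**
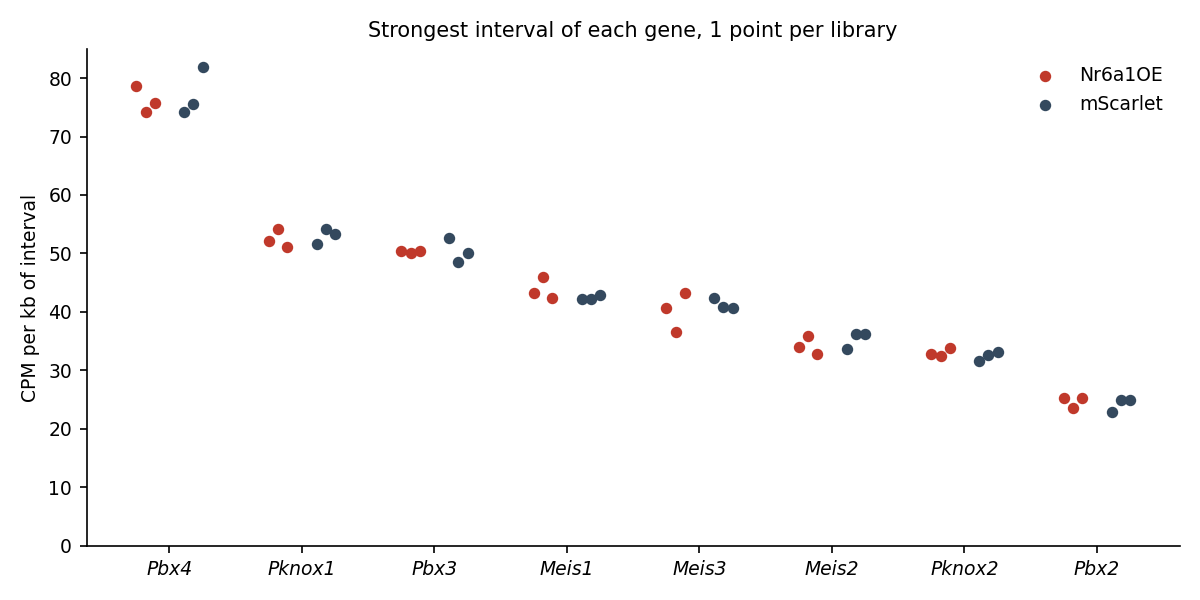
Accessibility of the strongest interval of each gene in CPM per kb of interval, on a linear axis from 0, with 1 point per library (Nr6a1OE left, mScarlet right in each pair). In every gene the 2 groups overlap, and the order runs down to Pbx2, whose means were 24.6 CPM per kb in Nr6a1OE and 24.3 in mScarlet.

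The log2 fold changes of these strongest intervals, in Nr6a1OE over mScarlet throughout, ran from -0.05 at Meis2 to 0.05 at Meis1. The Meis1 interval (mm10, chromosome 11, 19018588 to 19021261), which spans the start of the gene, held 117 ± 5.07 CPM in Nr6a1OE and 114 ± 0.881 CPM in mScarlet (SD, n = 3 each). Its fitted log2 fold change came to 0.05 ± 0.043 (standard error, SE; edgeR adjusted p = 0.720). With the median shift of chromosome 11 removed its sign turned (-0.01). The strongest Pbx3 interval (chromosome 2, 34371080 to 34373399), at one end of the gene, held 117 ± 0.564 CPM in Nr6a1OE and 117 ± 4.79 CPM in mScarlet. The strongest Pknox2 interval (chromosome 9, 37143752 to 37147551) held 125, 123 and 128 CPM in Nr6a1OE 1, 2 and 3 and 120, 124 and 126 CPM in mScarlet 1, 2 and 3. In all 7 intervals within 1 kb of a gene end the groups overlapped, and none was called, where 0.619% of all intervals so close to a gene end were called.

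Of the 95 tested intervals 5 were called, or 5.26%, against 1.73% of all tested intervals. Of these 2 were higher in Nr6a1OE, or 2.11% against 0.469% of all, and 3 were lower, or 3.16% against 1.26% of all. The higher ones were both at Meis1. The lower ones lay at Meis1, Pbx3 and Pknox2. Since the genes were proposed with earlier results of this comparison known, these shares describe the loci and support nothing beyond them. The remaining interval, at Meis1 (chromosome 11, 19333568 to 19334046), fell below the filter on low counts and was not tested.

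The clearest gain lay in the gene desert upstream of Meis1, the Meis gene known for its role in blood stem cells and leukaemia. The interval (chromosome 11, 19350609 to 19352560) was 332.6 kb upstream of the annotated start, and the next gene on that side, Spred2, lay 904.8 kb from Meis1. It held 33.8, 33.2 and 33.8 CPM in Nr6a1OE 1, 2 and 3, against 23.3, 22.9 and 26.4 CPM in mScarlet 1, 2 and 3. The Nr6a1OE libraries lay close together and all above the mScarlet libraries. The fitted log2 fold change came to 0.47 ± 0.083 (SE; edgeR adjusted p = 9.54e-06). Of the 24 tested intervals with a mean of at least 20 CPM it was the one called. It stayed called whichever library was dropped and under DESeq2 (adjusted p = 0.0228). The call was lost with an assumed variation of 10% between cultures (edgeR likelihood ratio test, adjusted p = 0.126).

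Neither neighbour of this interval was called. The next interval toward Meis1, 17.8 kb away, was the untested one, with 1.14 CPM in Nr6a1OE and 1.45 CPM in mScarlet. The next one away from Meis1 (starting at 19523710), 172.5 kb off and nearer to Spred2, held 29.7 ± 1.08 CPM in Nr6a1OE and 31.6 ± 2.30 CPM in mScarlet (SD, n = 3 each; log2 fold change -0.10, edgeR adjusted p = 0.682). Another upstream Meis1 interval (chromosome 11, 19159368 to 19160833), 141.1 kb from the start, went the other way. It held 7.95, 8.19 and 7.32 CPM in Nr6a1OE 1, 2 and 3, against 10.4, 11.1 and 12.5 CPM in mScarlet 1, 2 and 3, again with no overlap. The log2 fold change came to -0.54 ± 0.14 (SE; edgeR adjusted p = 0.0167). That call was lost without Nr6a1OE 1 (edgeR adjusted p = 0.0522), Nr6a1OE 3 (0.115) or mScarlet 3 (0.189). It was also lost with 10% variation between cultures (edgeR likelihood ratio test, adjusted p = 0.249) and in DESeq2 (adjusted p = 0.664).

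The last called Meis1 interval (chromosome 11, 18963368 to 18964099) lay inside the gene, 55.2 kb downstream of the start, and was weak. It held 2.70, 3.25 and 2.40 CPM in Nr6a1OE 1, 2 and 3, or 19, 23 and 19 fragments, against 0.685, 1.75 and 0.749 CPM in mScarlet 1, 2 and 3, or 5, 12 and 6 fragments. The groups did not overlap, and mScarlet 2 stood nearest to the Nr6a1OE libraries. The log2 fold change, 1.40 ± 0.35 (SE), was the largest of the 95 tested (edgeR adjusted p = 0.00944). The call was lost without Nr6a1OE 2 (edgeR adjusted p = 0.0851), mScarlet 1 (0.121) or mScarlet 3 (0.126) and in DESeq2 (0.464). Without mScarlet 2 the value was 1.92 (edgeR adjusted p = 0.00278). A much stronger interval 18.2 kb away (chromosome 11, 18980491 to 18983398) held 43.1 ± 5.04 CPM in Nr6a1OE and 44.1 ± 1.04 CPM in mScarlet (SD, n = 3 each; log2 fold change -0.03).

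The clearest loss was inside Pbx3. The interval (chromosome 2, 34260620 to 34261584) lay 89.6 kb from the closer end of the gene. It held 4.26, 4.10 and 3.79 CPM in Nr6a1OE 1, 2 and 3, or 30, 29 and 30 fragments, against 10.3, 6.99 and 7.49 CPM in mScarlet 1, 2 and 3, or 75, 48 and 60 fragments. All Nr6a1OE libraries were lower, and mScarlet 1 stood above the other control libraries. The fitted log2 fold change came to -1.03 ± 0.18 (SE; edgeR adjusted p = 1.04e-05). Without mScarlet 1 it was -0.84 (edgeR adjusted p = 0.0151). The call held in all 14 alternative fits, DESeq2 among them (adjusted p = 0.0418), which called 0.194% of all intervals. The stronger interval 11.2 kb away (chromosome 2, 34249290 to 34250477) had 34.7 ± 1.43 CPM in Nr6a1OE and 31.5 ± 1.22 CPM in mScarlet (SD, n = 3 each; log2 fold change 0.14, edgeR adjusted p = 0.453).

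Pknox2, which encodes the Pbx partner Prep2, lost accessibility at an interval inside the gene (chromosome 9, 37027499 to 37028367), with 119.4 kb to the closer end of the gene. It held 5.26, 4.80 and 4.67 CPM in Nr6a1OE 1, 2 and 3, against 8.76, 7.14 and 9.62 CPM in mScarlet 1, 2 and 3. The groups did not overlap. The log2 fold change came to -0.80 ± 0.17 (SE; edgeR adjusted p = 7.68e-04). It stayed called whichever library was dropped, but not under DESeq2 (adjusted p = 0.229). The next interval, 1.88 kb away, was not called (log2 fold change -0.24, edgeR adjusted p = 0.710).

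**Figure D2:**
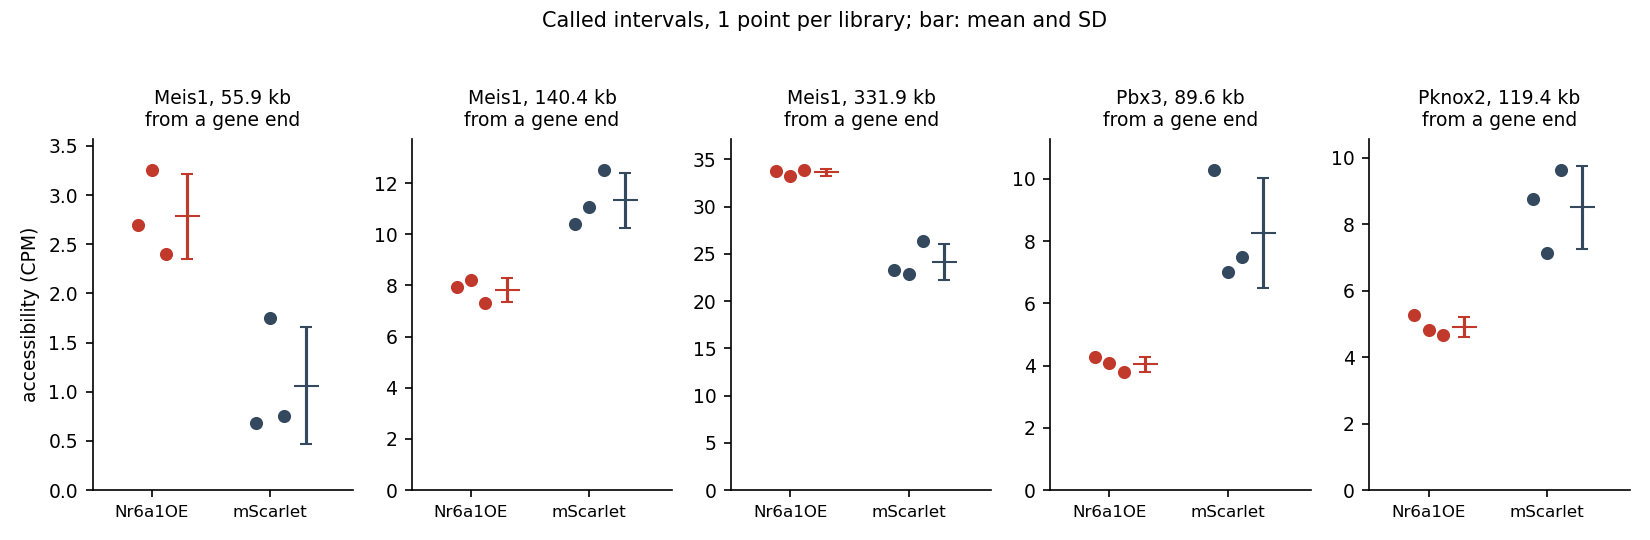
CPM of the 5 called intervals, 1 point per library, with the mean and SD of each group (n = 3) as a bar to the right, on linear axes from 0 that differ between panels. Nr6a1OE lies above mScarlet in the panels at 55.9 and 331.9 kb and below it in the other panels, with no overlap in any, and the panel titles give the distance to the nearer gene end.

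The called intervals were all distal. All 5 lay more than 50 kb from the nearer gene end, at 55.9 to 331.9 kb, although 53 of the 95 tested intervals were closer than that. Beyond 50 kb 5 of 42 intervals were called, or 11.9%, against 3.06% of all intervals so far from a gene end. Of the 53 within 50 kb edgeR called 0, with log2 fold changes of -0.58 to 0.54. Over all tested intervals at any distance 1.73% were called, so the share closer than 50 kb was lower still. At such a share 0 of 53 is not unusual, and the absence of calls near gene ends does not set these loci apart. The called intervals were 732 to 1952 bp long, and their mean over all libraries ran from 1.92 to 28.9 CPM. The 96 intervals as a whole had a median length of 941 bp and a median level of 7.25 CPM, against 1023 bp and 7.19 CPM over all intervals. Of the 96, 7.29% lay within 1 kb of a gene end, against 24.2% of all intervals.

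**Figure D3:**
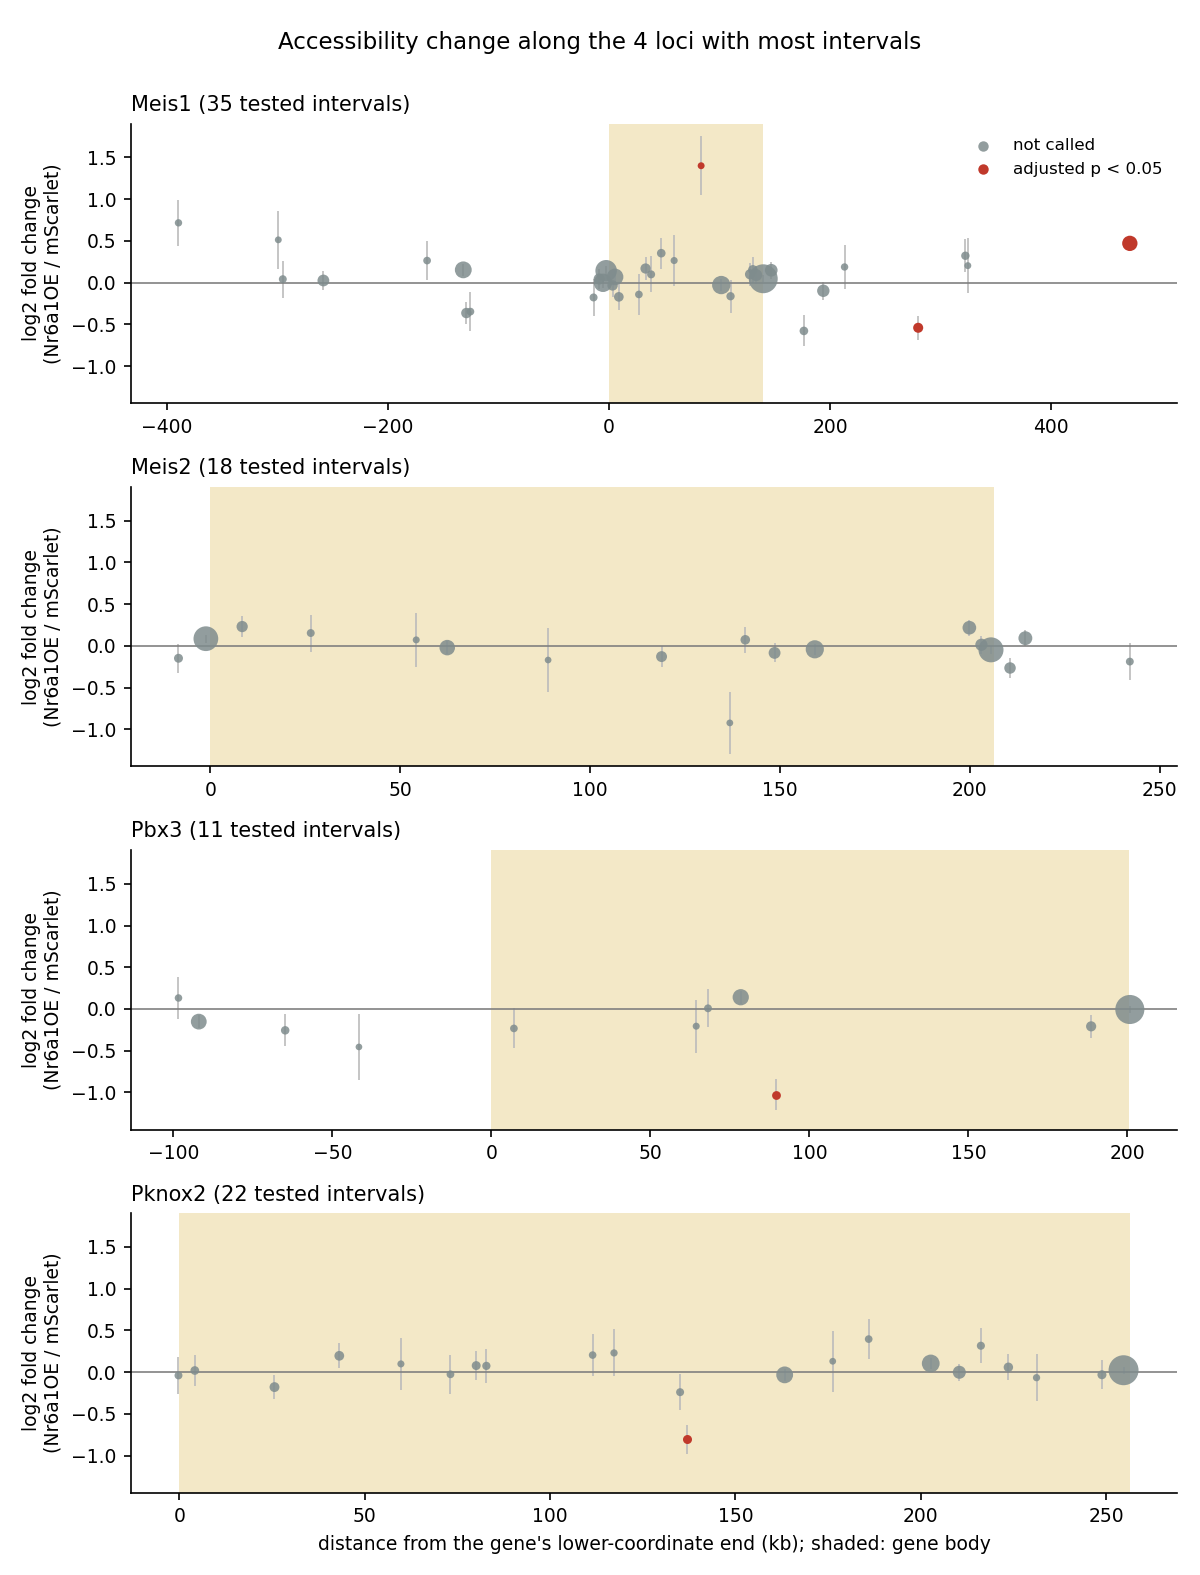
Log2 fold change (Nr6a1OE over mScarlet) of each tested interval at Meis1, Meis2, Pbx3 and Pknox2 against its distance in kb from the lower-coordinate end of the gene, with the gene body shaded, SE as grey bars and the point area growing with mean CPM. Called intervals, in red, lie far from both gene ends, while the large points at the gene ends sit near 0.

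Most intervals moved little and to both sides. The 95 tested intervals had a median log2 fold change of 0.02 (quartiles -0.15 and 0.15), 51 positive and 44 negative, against 0.0038 (quartiles -0.11 and 0.12) over all tested intervals. That median was -0.00080 without mScarlet 1, 0.0045 without Nr6a1OE 2, 0.0048 without Nr6a1OE 3, 0.0011 with chromosome medians removed, and 0.03 to 0.04 without each other library in turn, so its sign is not settled. The groups did not overlap at 22 of them, or 23.2%, against 16.6% of all tested. Of these 12 were higher in Nr6a1OE, against 7.89% of all, and 10 were lower, against 8.73% of all. An unadjusted edgeR p under 0.05 was reached by 15, or 15.8%, against 12.6% of all tested. Of those 7 were higher, where 5.73% of all were, and 8 were lower, where 6.87% of all were. An absolute log2 fold change of at least 1 was reached by 2 (2.11%, against 0.538% of all tested), at Meis1 and Pbx3. Among the 23 uncalled intervals of at least 20 CPM the values stayed between -0.15 and 0.27.

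At Meis1 23 of 35 tested intervals were positive, with a median of 0.09, of 0.09 over the 14 inside the gene and 0.05 over the 21 outside. Chromosome 11 as a whole had a median of 0.06 over 4076 tested intervals. Further Meis1 intervals passed only under some alternatives. The interval 37.7 kb upstream (chromosome 11, 19056120 to 19057287) held 5.40, 5.37 and 3.15 CPM in Nr6a1OE 1, 2 and 3, against 5.34, 7.58 and 7.62 CPM in mScarlet 1, 2 and 3. Nr6a1OE 3 was low and the groups overlapped (log2 fold change -0.58, edgeR adjusted p = 0.0803). With chromosome medians removed it was called (-0.64, edgeR adjusted p = 0.0420), as it was without mScarlet 1 (-0.73, edgeR adjusted p = 0.0457). At the other end of the gene, the interval 2.65 kb beyond its finish (chromosome 11, 18876594 to 18878973) held 64.6 CPM on average in Nr6a1OE and 58.7 CPM in mScarlet (log2 fold change 0.14, edgeR adjusted p = 0.226) and was called without mScarlet 2 (0.22, edgeR adjusted p = 0.0402). The member farthest from its gene, 389.6 kb beyond the finish of Meis1, held 3.52 CPM in Nr6a1OE and 2.14 CPM in mScarlet. No interval was nearest to any of the 8 genes beyond 400 kb, so nothing lay just outside that limit.

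Meis2, a Meis gene known to respond to retinoic acid, had 0 called of 18 intervals by edgeR, with 3 at an unadjusted p under 0.05, where 1.73% of all tested intervals were called and 12.6% reached that p. Its median log2 fold change was -0.03, with 8 positive and 10 negative. The interval nearest to its annotated start (chromosome 2, 116063882 to 116064699) held 15.2, 17.2 and 17.4 CPM in Nr6a1OE 1, 2 and 3 and 17.0, 16.8 and 15.9 CPM in mScarlet 1, 2 and 3. The groups overlapped, and the fitted log2 fold change came to 0.01 ± 0.11 (SE; edgeR adjusted p = 0.977). The strongest interval (chromosome 2, 116065587 to 116068033), which lay upstream of that start and inside the gene body, held 83.7 ± 3.90 CPM in Nr6a1OE and 86.5 ± 3.63 CPM in mScarlet (SD, n = 3 each). The largest difference was at a weak interval inside the gene (chromosome 2, 115997617 to 115998445), with 0.994, 1.27 and 1.14 CPM in Nr6a1OE, against 1.51, 3.21 and 1.87 CPM in mScarlet. Its groups did not overlap, and its log2 fold change of -0.92 ± 0.37 (SE) did not pass (edgeR adjusted p = 0.219). Without mScarlet 2 it was -0.58 (edgeR adjusted p = 0.636).

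Meis3, Pbx2, Pbx4 and Pknox1 held 9 intervals in all, and edgeR called 0 of them, with 2 at an unadjusted p under 0.05. Those counts stand against the same 1.73% and 12.6% of all tested intervals. The interval 2.88 kb upstream of Meis3 (chromosome 7, 16172171 to 16172855) held 21.7, 25.9 and 23.0 CPM in Nr6a1OE 1, 2 and 3, against 18.1, 20.5 and 20.0 CPM in mScarlet 1, 2 and 3. The groups did not overlap, but the log2 fold change of 0.27 ± 0.096 (SE) did not pass (edgeR adjusted p = 0.145). The weaker Pknox1 interval (chromosome 17, 31556622 to 31557940), 7.44 kb from the gene that encodes Prep1, held 3.27, 4.10 and 4.04 CPM in Nr6a1OE 1, 2 and 3, against 5.20, 4.95 and 5.37 CPM in mScarlet 1, 2 and 3 (log2 fold change -0.44, edgeR adjusted p = 0.347). The largest Pbx4 difference was -0.51 (edgeR adjusted p = 0.418), at a weak interval inside the gene, and -0.32 without mScarlet 2 (edgeR adjusted p = 0.736). Pbx2 lies 0.06 kb from Ager on one side and 0.505 kb from Gpsm3 on the other. Its 1 interval (chromosome 17, 34591553 to 34593406) also covered the near end of Gpsm3. The interval held 45.6 ± 1.85 CPM in Nr6a1OE and 45.0 ± 2.25 CPM in mScarlet (SD, n = 3 each; log2 fold change 0.02, edgeR adjusted p = 0.944).

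Among the other Pbx3 intervals, 7 of the 10 uncalled ones were also negative, and the median of all 11 was -0.21. The 22 Pknox2 intervals had a median of 0.04, with 13 positive and 9 negative. At Pknox2 the groups failed to overlap at 4 intervals, 3 higher in Nr6a1OE and the called one lower, where 16.6% of all tested intervals did so.

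Summed over all intervals of a gene, and fitted over 16496 genes, edgeR called 0 of the 8 genes, against 2.00% of all genes (0.885% higher and 1.12% lower). DESeq2 called 0 of the 8, and 5 higher and 14 lower over all genes. It gave no adjusted p for Meis3, Pbx2, Pbx4 and Pknox1, so those could not be called by it. An unadjusted edgeR p under 0.05 was reached by Meis1, 1 of the 8, against 13.1% of all genes. Scaled to the library totals of these sums, Meis1 held 540, 567 and 537 CPM in Nr6a1OE 1, 2 and 3, against 505, 538 and 526 CPM in mScarlet 1, 2 and 3. The groups overlapped, and the fitted log2 fold change came to 0.07 ± 0.023 (SE; edgeR adjusted p = 0.118). With the chromosome medians removed it was 0.01 (edgeR adjusted p = 0.891). Without mScarlet 2 it was 0.09 and passed (edgeR adjusted p = 0.0306), while it was 0.04 without Nr6a1OE 2 (0.564) and 0.04 without mScarlet 1 (0.576). Meis3 held 70.1 ± 2.54 CPM in Nr6a1OE and 66.7 ± 0.861 CPM in mScarlet (SD, n = 3 each), without overlap (log2 fold change 0.07, edgeR adjusted p = 0.604). Pbx3 stood at the other end, with 199 ± 4.56 CPM in Nr6a1OE and 207 ± 3.25 CPM in mScarlet (SD, n = 3 each; log2 fold change -0.05, edgeR adjusted p = 0.513). The remaining genes lay between these values.

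**Figure D4:**
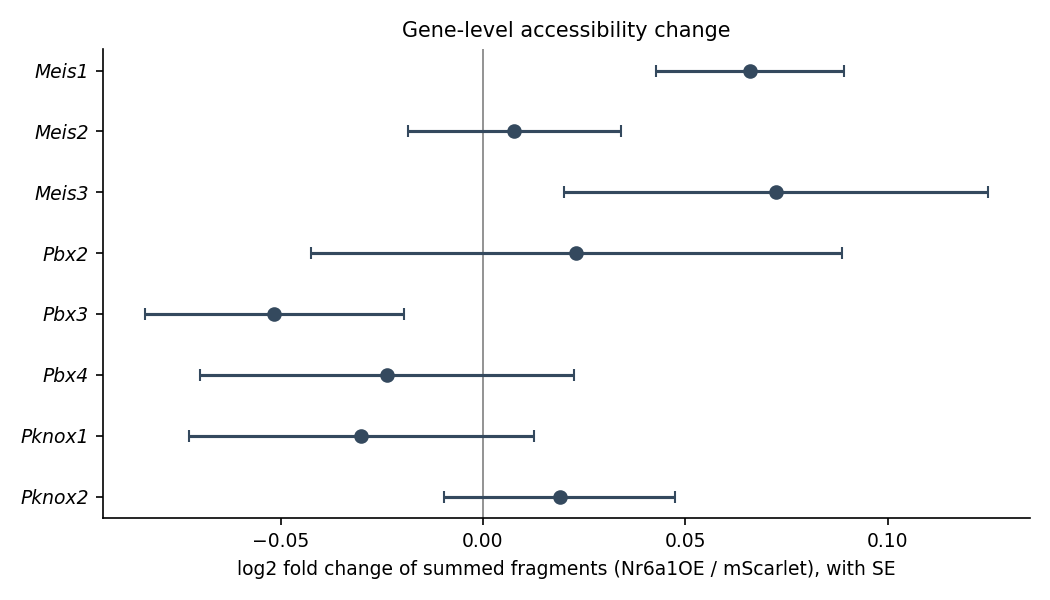
Log2 fold change (Nr6a1OE over mScarlet) of the fragments summed over all intervals of each gene, with the SE as bars and 1 row per gene. The values lie between -0.05 at Pbx3 and 0.07 at Meis3, and none was called.

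Related genes were counted in the same fit. The other TALE genes and a Pbx-binding partner, Irx1 to Irx6, Tgif1, Tgif2, Mkx and Pbxip1, had 85 tested intervals, with 3 called higher and 1 called lower (4.71%, against 1.73% of all) and a median log2 fold change of 0.02. All 3 gains were at Irx3, and the largest (chromosome 8, 91966901 to 91968056) held 19.5, 19.9 and 17.0 CPM in Nr6a1OE 1, 2 and 3, against 13.6, 13.6 and 11.9 CPM in mScarlet 1, 2 and 3 (log2 fold change 0.53, edgeR adjusted p = 5.76e-04). The loss was at Irx2, 325.5 kb from the gene. Hox proteins bind DNA together with TALE proteins. The Hox genes had 108 tested intervals, with 3 called higher, at Hoxb9, Hoxc8 and Hoxc6, and 2 called lower (4.63%). Their median log2 fold change was 0.06.

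Over the 6 libraries and 8106 genes of at least 50 CPM, the genes whose summed accessibility was most like that of Meis1 were Ndufa4l2 (Pearson r = 0.989), Rbfox2 (0.982) and Hmcn2 (0.978). With 6 libraries drawn from 2 groups these are descriptions only.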

How the data were processed

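ATAC-seq libraries of 3 Nr6a1OE and 3 mScarlet samples were compared. The deposited table holds whole-number counts of fragments per consensus interval, made by the authors with featureCounts 2.0.1 from paired reads, counting overlaps of at least 0.2 of a fragment and allowing a fragment in several intervals, per the file header. The genome build is mm10, per the submitters' processing notes. The aligner, the peak caller and any shift for Tn5 were not given in the sources used here. All value columns were used.

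Intervals were assigned to 21896 RefSeq protein-coding genes (GRCm38.p6) by midpoint. An interval inside 1 gene whose nearest gene end was that of another, or inside several, counted for each. Intervals were filtered with filterByExpr, scaled by TMM and tested with edgeR 4.0.16 in R 4.3.3 (quasi-likelihood test, Nr6a1OE over mScarlet, Benjamini-Hochberg adjustment over all 51637 tested intervals, adjusted p under 0.05), and 586 intervals were removed by the filter. The same fit was run on the sums of intervals per gene. CPM of intervals were computed as the deposited counts over the library total of tested intervals times its TMM factor. CPM of gene sums used the total of the sums, in which an interval shared by genes counts more than once. The scales therefore differ: the lone Pbx2 interval had a mean of 45.6 CPM in Nr6a1OE as an interval and 42.8 CPM as a sum. SEs are the log2 fold change over the root of F. DESeq2 1.42.0 was an alternative test. The tests were tried on simulated data first.

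Libraries held 6857763 to 8030029 fragments. Chi-square values over degrees of freedom for pairs of libraries in 1 group were 1.05 to 1.10, near counting noise, against 1.27 to 1.44 between groups. The common coefficient of variation was 1.47%, so a fit with an assumed variation of at least 10% between cultures was added to the alternatives. That fit used edgeR's likelihood ratio test in place of the quasi-likelihood test, so it differs from the main fit in both the test and the variation.

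Named intervals were, for each gene, the called ones, the strongest, the one nearest the start or a gene end and the one with the largest difference. An interval named beside these, such as a neighbour of a called one or one called only under some alternatives, was chosen after its values were seen. The genes and the lists were chosen with earlier results of these data known. The likeness of other genes to Meis2 and the positions of the Hox intervals called lower are not reported here.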

Additional observations from a re-analysis of the deposited data

How the results depend on the processing

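The Pbx3 loss was called in all 14 alternatives, and the far upstream Meis1 gain and the Pknox2 loss in 13 of 14 each. The inner Meis1 gain was called in 10 of 14 and the nearer upstream Meis1 loss in 9 of 14. Over all intervals, 242 were called higher and 652 lower. DESeq2 called 3 higher and 97 lower, with 1 higher and 1 lower among the 95 intervals of the 8 genes. An assumed variation of 10% between cultures gave 19 higher and 205 lower, with 1 higher and 2 lower among the 8 genes' intervals. With gene ends taken within 100 kb, or intervals inside a gene body alone, 1 was higher and 2 were lower. Leaving out 1 library gave 98 to 190 higher and 395 to 544 lower, and 1 to 3 higher and 2 to 4 lower at the 8 genes.

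Over all genes, 146 summed values were called higher and 184 lower. DESeq2 gave 5 higher and 14 lower, the 10% variation 1 higher and 5 lower, and removal of chromosome medians 93 higher. Leaving out 1 library gave 63 to 145 higher and 88 to 170 lower, and 0 to 1 higher among the 8 genes. The cause of these differences was not tested.

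Same-numbered libraries had correlations of -0.00629 to 0.0047 in their deviations from the group means. Libraries of a group differed by little more than counting noise, so these values cannot show whether the replicate numbers pair the samples. With the number as a replicate block, 224 intervals were called higher and 617 lower, with 2 higher and 3 lower at the 8 genes.

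Uncalled log2 fold changes near 0 changed sign as 1 library was left out. Their ranges were -0.025 to 0.071 at the Meis2 start, -0.097 to 0.026 at the strongest Meis3 interval, -0.039 to 0.0038 at that of Pknox1, -0.020 to 0.053 at that of Pbx2, -0.032 to 0.026 at that of Pbx3, -0.050 to 0.029 at that of Pbx4 and -0.13 to 0.16 at the Pknox2 gene end. For the sums they were -0.016 to 0.024 at Meis2, -0.021 to 0.053 at Pbx2, -0.0056 to 0.038 at Pknox2 and -0.050 to 0.016 at Pbx4. Loess offsets gave 0.0093 at the strongest Pbx3 interval, and removal of chromosome medians -0.012 at that of Meis1. Depth limits the weak intervals most: the inner Meis1 gain rests on 5 to 23 fragments per library.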
